A study of Solanum lycopersicum with 8 samples.

Results

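The genes described here encode the enzymes of the last 2 steps of ethylene synthesis in tomato, ACC synthase (ACS) and ACC oxidase (ACO). They were chosen by gene ID, 5 IDs for ACS and 5 for ACO, by a rule that names no measured value but was set with earlier results of these data known. Of these 10 IDs, 9 were analysed, 4 ACS and 5 ACO genes among the 34109 genes of the table, and Solyc08g008100, listed as ACS, was not analysed here. The IDs are assigned to ACS or ACO by the list itself, and no table used here pairs them with gene names, so the IDs are used throughout.

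RNA was sequenced from inflorescence meristems of 8-week-old tomato plants (*Solanum lycopersicum*) of 2 double mutants, with 4 *plt3* *plt7* and 4 *ej2* *j2* libraries. *PLT3* and *PLT7* encode a paralogous pair of PLETHORA transcription factors, *EJ2* and *J2* a paralogous pair of SEPALLATA MADS-box transcription factors, and both double mutants form branched inflorescences. The *plt3* and *plt7* alleles were made by CRISPR-Cas9 in the cultivar M82, whereas *ej2* and *j2* came from existing stocks. No wild-type library was used, so every difference below is *plt3* *plt7* against *ej2* *j2*, and the change of either mutant from wild type cannot be told apart. The labels give 4 plants but do not tie each library to a plant, so p-values measure the spread between these libraries. Values are TPM, a measure scaled to transcript length and to each library's total, which allow levels of different genes to be compared per length but keep no read numbers, so the sequencing depth is unknown.

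Ethylene is a gaseous hormone best known in tomato for driving fruit ripening, and it also acts in flower and fruit abscission and in responses to wounding and stress. Plants make it from methionine: S-adenosylmethionine synthetase forms S-adenosylmethionine, ACS turns this into 1-aminocyclopropane-1-carboxylic acid (ACC), and ACO oxidises ACC to ethylene. ACS is usually the rate-limiting step, and both enzymes are encoded by small families whose members differ in tissue and in response to wounding, auxin and ethylene itself.

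In these meristems a single ACS gene, Solyc08g081550, carried most of the summed level of the 4 ACS genes analysed. Mainly 1 ACO gene, Solyc07g049530, carried most of that of the 5 ACO genes analysed. A further ID listed as a homologue, Solyc02g036350, was outside these sums. Its mean in *plt3* *plt7* was 296 TPM, against 185 TPM for Solyc07g049530. No ACS or ACO gene passed the test between genotypes, which was limma on log2(TPM + 1) over the 19544 genes that averaged 1 TPM or more, at a Benjamini-Hochberg adjusted p under 0.05. The counts were 0 of 1 ACS gene tested and 0 of 4 ACO genes tested, where 1.84% of all genes tested passed, 0.875% as higher and 0.962% as lower in *plt3* *plt7*. The ACO genes Solyc12g005940 and Solyc07g049550 had higher levels in every *plt3* *plt7* library than in any *ej2* *j2* library, as did 3.87% of all genes tested; ranges failed to overlap in either direction for 6.87%, and with *plt3* *plt7* lower for 3%.

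**Figure D1:**
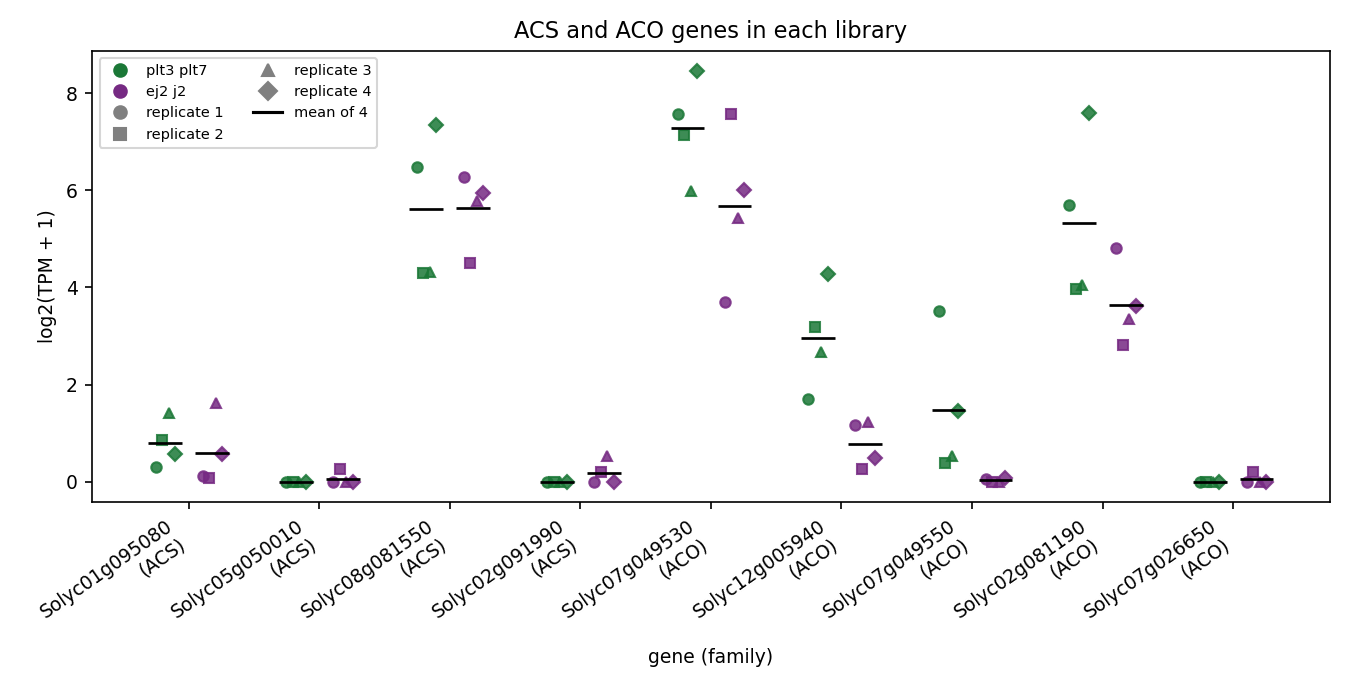
Level of each of the 9 ACS and ACO genes as log2(TPM + 1) in each library, *plt3* *plt7* left of *ej2* *j2* for each gene, with marker shape for the replicate number and a bar for the mean of 4 libraries. The 2 genotypes separate for Solyc12g005940 and Solyc07g049550 and overlap or lie near 0 for the other 7 genes.

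Among the ACS genes, which make ACC, Solyc08g081550 had 88.6, 18.6, 18.9 and 162 TPM in *plt3* *plt7* replicates 1 to 4, against 77.0, 21.9, 54.0 and 61.1 TPM in *ej2* *j2* replicates 1 to 4. The *plt3* *plt7* libraries held both the highest and the lowest values, and the genotypes overlapped. It averaged 72.0 ± 68.5 TPM in *plt3* *plt7* and 53.5 ± 23.2 TPM in *ej2* *j2* (SD, n = 4 each). The difference on the log2(TPM + 1) scale was -0.02 with a standard error of 0.91 and a 95% interval of -1.81 to 1.76 (limma, adjusted p = 0.995). An exact two-sided permutation test of the same difference gave p = 0.971. The interval leaves room for a difference of more than 3-fold in either direction. Solyc08g081550 ranked above 60.3 to 94.1% of the genes with a level above 0, depending on the library.

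The other 3 ACS genes analysed were near 0, and none was tested by limma because their means were under 1 TPM. Solyc01g095080 had 0.228, 0.820, 1.68 and 0.481 TPM in *plt3* *plt7*, against 0.0811, 0.0472, 2.08 and 0.487 TPM in *ej2* *j2*. Replicate 3 was highest in each genotype and the ranges overlapped (exact two-sided permutation test, p = 0.657). Solyc05g050010 was listed at 0 in all 4 *plt3* *plt7* libraries and in 3 *ej2* *j2* libraries, and at 0.196 TPM in *ej2* *j2* replicate 2. Solyc02g091990 was likewise listed at 0 in *plt3* *plt7*, with 0, 0.150, 0.444 and 0 TPM in *ej2* *j2* (exact two-sided permutation test, p = 0.429). Solyc08g081550 thus made up 91.8 to 99.9% of the summed level of the 4 ACS genes analysed and was the highest of them in 8 of 8 libraries.

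Among the 5 ACO genes analysed, which turn ACC into ethylene, Solyc07g049530 had the highest mean level in both genotypes. It had 189, 140.2, 62.4 and 349.9 TPM in *plt3* *plt7* replicates 1 to 4, against 12.0, 189, 42.2 and 63.2 TPM in *ej2* *j2* replicates 1 to 4. Of the *ej2* *j2* libraries, 3 were low or lay near the lowest *plt3* *plt7* library, while *ej2* *j2* replicate 2 was as high as *plt3* *plt7* replicate 1, so the genotypes overlapped. Solyc07g049530 averaged 185 ± 121 TPM in *plt3* *plt7* and 76.6 ± 77.9 TPM in *ej2* *j2* (SD, n = 4 each), a ratio of 2.42. The log2 difference was 1.61 with a standard error of 0.91 (limma, adjusted p = 0.439), and the exact two-sided permutation test gave p = 0.171. The estimate was 2.24 without *ej2* *j2* replicate 2 and 0.95 without *ej2* *j2* replicate 1 (limma, adjusted p 0.228 and 0.779), neither past the threshold.

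Solyc02g081190, the second most abundant of the 5 ACO genes, had 50.6, 14.8, 15.5 and 192 TPM in *plt3* *plt7*, against 27.3, 6.06, 9.13 and 11.2 TPM in *ej2* *j2*. *plt3* *plt7* replicate 4 stood far above the others, and the ranges overlapped only through *ej2* *j2* replicate 1. The means were 68.2 ± 84.1 TPM in *plt3* *plt7* and 13.4 ± 9.49 TPM in *ej2* *j2* (SD, n = 4 each), a ratio of 5.08, and without *plt3* *plt7* replicate 4 the *plt3* *plt7* mean was 27.0 TPM. The log2 difference was 1.68 with a standard error of 0.90 (limma, adjusted p = 0.396) and 0.92 without that library, and the exact two-sided permutation test gave p = 0.143.

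Solyc12g005940 was a less abundant ACO gene, with 2.26, 8.16, 5.39 and 18.3 TPM in *plt3* *plt7*, against 1.26, 0.194, 1.33 and 0.395 TPM in *ej2* *j2*. Every *plt3* *plt7* library exceeded every *ej2* *j2* library, and the lowest of the first was 1.70 times the highest of the second. The means were 8.52 ± 6.93 TPM in *plt3* *plt7* and 0.795 ± 0.585 TPM in *ej2* *j2* (SD, n = 4 each), a ratio of 10.7, and without *plt3* *plt7* replicate 4 the *plt3* *plt7* mean was 5.27 TPM and the ratio 6.63. The log2 difference was 2.18 with a standard error of 0.69 and a 95% interval of 0.82 to 3.53, and it did not pass (limma, adjusted p = 0.0689). The exact two-sided permutation test gave p = 0.0286, the smallest that 4 against 4 libraries can give. The estimate was between 1.41 and 3.19 in the 16 alternatives that could be fitted, and it passed in none of them (limma, adjusted p 0.0655 to 0.540).

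Solyc07g049550, also an ACO gene, had 10.5, 0.305, 0.442 and 1.76 TPM in *plt3* *plt7*, against 0.0404, 0, 0 and 0.0486 TPM in *ej2* *j2*. The ranges did not overlap, and *plt3* *plt7* replicate 1 was far above the other 7 libraries. The log2 difference was 1.44 with a standard error of 0.54 (limma, adjusted p = 0.146), and the exact two-sided permutation test gave p = 0.0286. Without *plt3* *plt7* replicate 1 the mean of *plt3* *plt7* was 0.836 TPM, and the gene was then too low to be tested. With values this close to 0 the estimate depends on the pseudocount, and it was 3.59 with 0.1 in place of 1. The last ACO gene, Solyc07g026650, was listed at 0 in 7 libraries and at 0.150 TPM in *ej2* *j2* replicate 2.

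The 4 ACO genes tested had log2 differences between 1.44 and 2.18, with a median of 1.64, beside a median of 0.05 over all genes tested. All 4 were above 0, as were 52% of all genes tested, and 2 of 4 had an unadjusted limma p under 0.05, as did 13.8% of all genes tested. Solyc12g005940 and Solyc07g049550 averaged under 1 TPM in *ej2* *j2* and entered the test only through their level in *plt3* *plt7*, so this count and median describe the genes that passed the filter and not the whole family. Without the filter, the 5 ACO genes had 4 estimates above 0 and 1 below, and the 4 ACS genes 1 above and 3 below, with lowest limma adjusted p of 0.208 and 0.625. Solyc07g049530 and Solyc07g049550 have close IDs on chromosome 7, and the sources used here do not say how reads shared between similar copies were assigned, so the split of reads between them is uncertain.

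Over the 5 ACO genes, the summed level was 252.7, 163, 83.7 and 562 TPM in *plt3* *plt7* replicates 1 to 4, against 40.6, 195.5, 52.7 and 74.8 TPM in *ej2* *j2* replicates 1 to 4. Only *ej2* *j2* replicate 2 lay above the lowest *plt3* *plt7* library. The sums averaged 265 ± 209 TPM in *plt3* *plt7* and 90.9 ± 71.2 TPM in *ej2* *j2* (SD, n = 4 each), a ratio of 2.92. That ratio was 1.83 without *plt3* *plt7* replicate 4 and 4.74 without *ej2* *j2* replicate 2, so it rested strongly on single libraries. With only *plt3* *plt7* replicates 1 and 3 beside all *ej2* *j2* libraries, the ratio was 1.85.

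For the 4 ACS genes the summed level was 88.8, 19.4, 20.6 and 163 TPM in *plt3* *plt7*, against 77.0, 22.2, 56.5 and 61.6 TPM in *ej2* *j2*. The ratio of means was 1.34, and it turned to 0.790 without *plt3* *plt7* replicate 4. The ratio of summed ACO to summed ACS was 2.84, 8.42, 4.06 and 3.46 in *plt3* *plt7*, against 0.527, 8.79, 0.932 and 1.21 in *ej2* *j2*. The ACO sum exceeded the ACS sum in every *plt3* *plt7* library and in *ej2* *j2* replicates 2 and 4, but not in *ej2* *j2* replicates 1 and 3. These sums leave out the further homologues given below. Among those, Solyc02g036350 had 95.1 and 32.5 TPM in *ej2* *j2* replicates 1 and 3, so the order of the whole families is not shown. In bulk tissue, fewer cells that express a gene and less RNA of it per cell cannot be told apart.

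**Figure D2:**
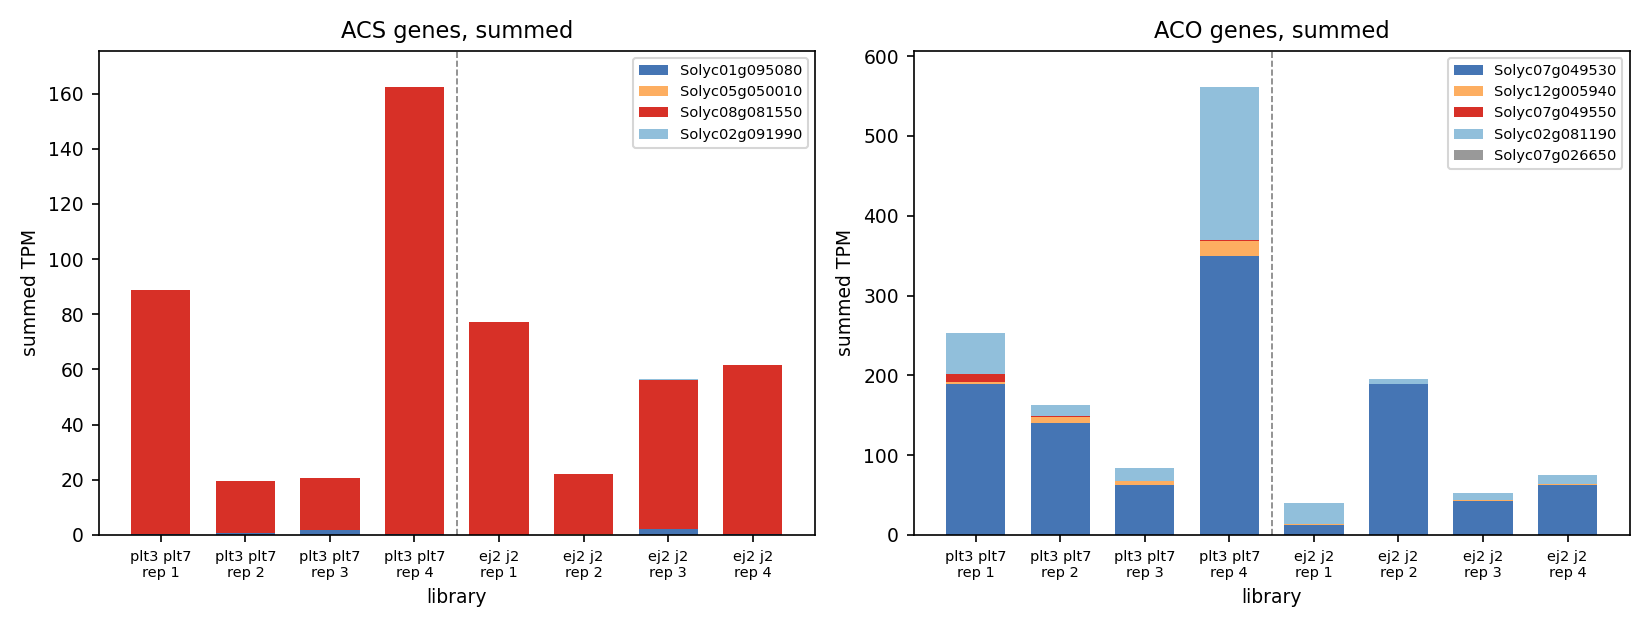
Summed TPM of the 4 ACS genes (left panel) and the 5 ACO genes (right panel) in each library, stacked by gene, with *plt3* *plt7* left of *ej2* *j2*. Solyc08g081550 fills nearly all of each ACS bar, and the tallest ACO bar is *plt3* *plt7* replicate 4 at 562 TPM.

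Within the 5 ACO genes analysed, Solyc07g049530 and Solyc02g081190 together made up 93.0 to 99.8% of the sum. Solyc07g049530 was the highest of these ACO genes in 7 of 8 libraries. The exception was *ej2* *j2* replicate 1, where Solyc02g081190 held 67.2% of the sum. Of the 5 genes tested, 4 had their highest value of all libraries in *plt3* *plt7* replicate 4, and Solyc07g049550 had its highest in replicate 1. How many of all genes tested were highest in replicate 4 was not counted, so the count cannot be called particular to these genes.

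The ACS gene Solyc08g081550 and the ACO gene Solyc02g081190 ordered the libraries alike within each genotype. In *plt3* *plt7* the order of both genes was replicate 4, 1, 3 and 2 from high to low, and in *ej2* *j2* it was replicate 1, 4, 3 and 2. It was the only pair of the 10 pairs of tested genes with the same order in both genotypes. In *plt3* *plt7* that order rested on small differences between replicates 3 and 2. The values were 18.9 and 18.6 TPM for Solyc08g081550 and 15.5 and 14.8 TPM for Solyc02g081190. After each genotype's mean was removed, Pearson's r of their log2(TPM + 1) values was 0.94 over the 8 libraries, and between -0.50 and 0.60 for the other 9 pairs. These correlations describe the same 8 libraries, whose depth is unknown. How many other gene pairs of the table agree as closely was not tested, so the agreement cannot be called particular to this pair.

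**Figure D3:**
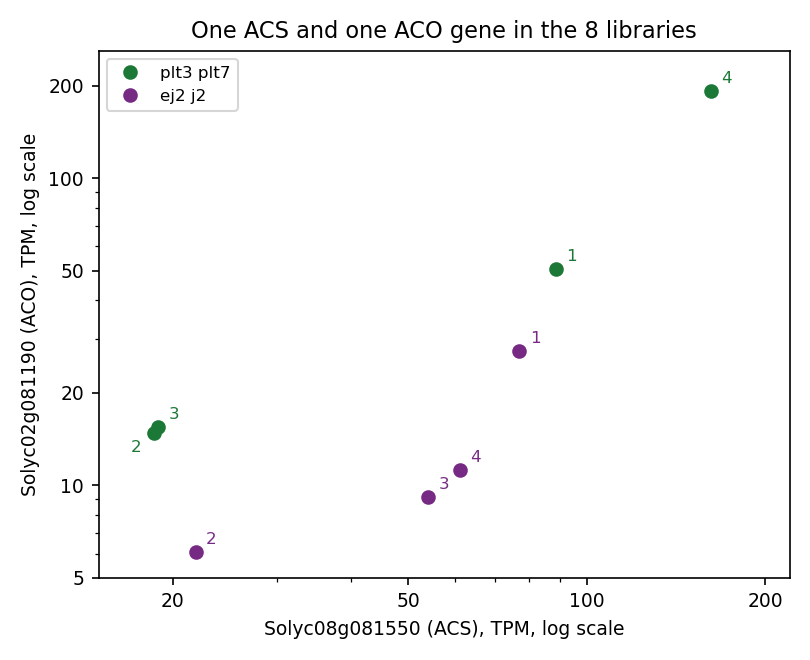
Level of the ACO gene Solyc02g081190 against that of the ACS gene Solyc08g081550, in TPM on log axes, with 1 point per library labelled by its replicate number. Both genes order the libraries alike within each genotype, and *plt3* *plt7* replicate 4 is highest for both at 192 and 162 TPM.

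Other genes of the pathway were read from lists of IDs whose functions were assigned from general knowledge, since no table used here annotates them. Of 6 further IDs listed as ACS or ACO homologues, 2 were tested and neither passed. The ACS and ACO sums, shares and rankings above leave these IDs out. The most abundant, Solyc02g036350, had 145, 205, 293 and 541 TPM in *plt3* *plt7*, against 95.1, 24.8, 32.5 and 45.5 TPM in *ej2* *j2*. Its ranges did not overlap, and in *plt3* *plt7* its mean was above that of any of the 9 genes described above. It was above Solyc07g049530 in *plt3* *plt7* replicates 2, 3 and 4 and *ej2* *j2* replicate 1, and below it in the other libraries. The log2 difference of Solyc02g036350 was 2.57 with a standard error of 0.91 (limma, adjusted p = 0.120), and the exact two-sided permutation test gave p = 0.0286. The other tested homologue, Solyc08g079750, had 33.2, 25.8, 40.2 and 20.4 TPM in *plt3* *plt7*, against 11.2, 45.4, 22.4 and 9.68 TPM in *ej2* *j2*, with overlapping ranges. It was above Solyc08g081550 in *plt3* *plt7* replicates 2 and 3 and *ej2* *j2* replicate 2, and below it in the other libraries. Upstream of ACS, 0 of 3 S-adenosylmethionine synthetases tested passed, with a median log2 difference of 0.19. The most abundant, Solyc01g101060, had 137, 1084, 938 and 3648 TPM in *plt3* *plt7*, against 363, 1930, 755 and 394 TPM in *ej2* *j2*, and the genotypes overlapped. Like 4 of the 5 tested ACS and ACO genes, it was highest in *plt3* *plt7* replicate 4, a trait not counted over all genes tested.

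Downstream, the listed ethylene receptors, which repress the pathway until ethylene binds, gave 0 of 7 genes past the test and a median log2 difference of 0.85. The most abundant of them, Solyc06g053710, had 47.0, 186, 133 and 92.7 TPM in *plt3* *plt7*, against 28.4, 16.5, 7.58 and 288 TPM in *ej2* *j2*, with overlapping ranges (limma, adjusted p = 0.437). Over all genes tested, 0.875% passed as higher and 0.962% as lower, with a median log2 difference of 0.05. Of 11 genes listed for signal transduction, 1 rose and 0 fell, with a median of 0.96. That gene, Solyc12g009560, had 1246, 689, 1195 and 1231 TPM in *plt3* *plt7*, against 9.75, 251, 11.8 and 85.1 TPM in *ej2* *j2*. All *plt3* *plt7* libraries lay well above all *ej2* *j2* libraries, and the log2 difference of Solyc12g009560 was 4.68 with a standard error of 0.92 (limma, adjusted p = 5.50e-04).

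Of 12 genes tested that were listed for the ethylene response, 1 rose and 0 fell, with a median log2 difference of 0.42. Over all genes tested, 0.875% passed as higher and the median was 0.05. Solyc12g056590 had 4.82, 11.2, 2.68 and 5.47 TPM in *plt3* *plt7*, against 0.474, 0.0231, 1.23 and 0.146 TPM in *ej2* *j2*. The ranges did not overlap, and the log2 difference was 2.19 with a standard error of 0.65 (limma, adjusted p = 0.0460). This call held in 5 of the 16 alternatives that could be fitted, and among those that left out a library only without *plt3* *plt7* replicate 3 (limma, adjusted p 0.0333 to 0.144 over the 8).

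**Figure D4:**
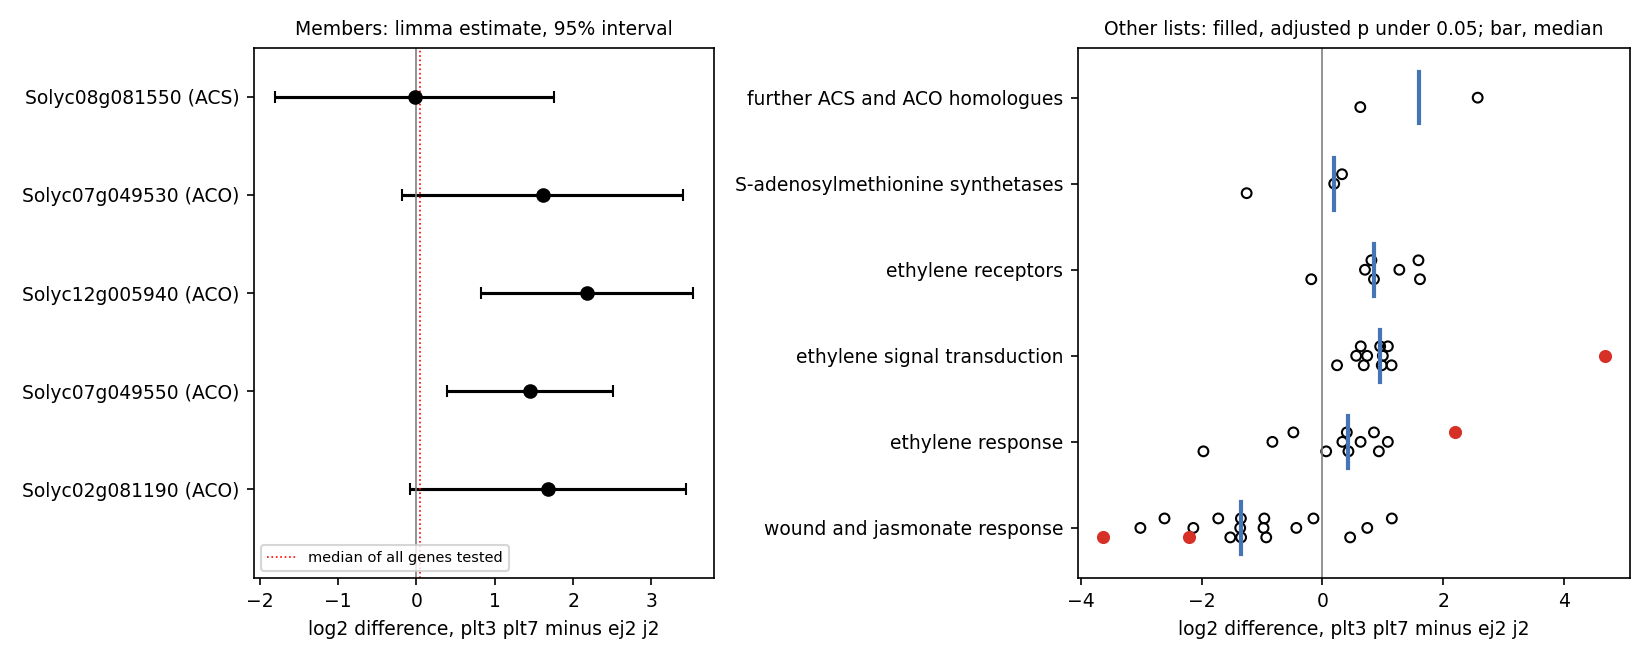
Log2 differences of *plt3* *plt7* minus *ej2* *j2* on the log2(TPM + 1) scale: left, the 5 tested ACS and ACO genes with limma 95% intervals and the median of all genes tested as a dotted line; right, each tested gene of the other lists, filled where the limma adjusted p was under 0.05, with a bar at the list's median. The intervals of Solyc12g005940 and Solyc07g049550 lie above 0, and Solyc12g009560 is the point farthest to the right at 4.68.

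ACS and ACO genes are known to respond to wounding and stress, so the levels of such genes are given beside them. Of 18 tested genes listed for wound and jasmonate response, 0 rose and 2 fell, with a median log2 difference of -1.35. Over all genes tested, 0.962% passed as lower and the median was 0.05. The summed level of the wound and jasmonate list was 1193 to 3011 TPM in *plt3* *plt7* and 2190 to 7541 TPM in *ej2* *j2*. Solyc09g084490 had 0.458, 1.20, 1.92 and 0.805 TPM in *plt3* *plt7*, against 336, 0.744, 32.2 and 19.9 TPM in *ej2* *j2* (limma, adjusted p = 0.00426), a call lost without *ej2* *j2* replicate 1 (limma, adjusted p = 0.104). Solyc09g084450 had 0, 0.519, 2.04 and 0 TPM in *plt3* *plt7*, against 15.5, 1.35, 8.71 and 4.75 TPM in *ej2* *j2* (limma, adjusted p = 0.0487). The call of Solyc09g084450 held in 6 of the 16 alternatives that could be fitted, and among those that left out a library only without *ej2* *j2* replicate 2 or *plt3* *plt7* replicate 3 (limma, adjusted p 0.0180 to 0.200 over the 8). Both genes were highest in *ej2* *j2* replicate 1. The summed level of the list was instead highest in *ej2* *j2* replicate 4, at 7541 TPM, against 3481 TPM in *ej2* *j2* replicate 1. Of 6 tested genes listed for heat response 0 passed. Their median log2 difference was 0.19, and 4 of the 6 were above 0, beside 52% of all genes tested. The most abundant, Solyc04g011440, had 96.6 to 177 TPM in *plt3* *plt7* and 9.12 to 53.1 TPM in *ej2* *j2*, with no overlap (limma, adjusted p = 0.0529). The ranges of the other tested heat response genes overlapped. Of 8 tested genes commonly used as references for expression 0 passed, and the most abundant, Solyc06g005060, had 283 to 1037 TPM in *plt3* *plt7* and 293 to 1786 TPM in *ej2* *j2*. The part of the wound and heat response in the ACS and ACO levels was not tested.

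The labelled tissue was checked on 10 genes listed for inflorescence and floral meristems, which summed to 274 to 928 TPM in *plt3* *plt7* and 401 to 1115 TPM in *ej2* *j2*. Their median log2 difference was -1.23, beside 0.05 over all genes tested. Of the 10 genes, 3 had a difference above 0, beside 52% of all genes tested. None was at 0 in every library, and 1 of them, Solyc02g081670, was listed at 0 in all *plt3* *plt7* libraries and had 3.70, 8.76, 6.66 and 0.125 TPM in *ej2* *j2* (limma, adjusted p = 0.0242). The call of Solyc02g081670 held in 7 of the 16 alternatives that could be fitted, and among those that left out a library only without *ej2* *j2* replicate 1 or 4 (limma, adjusted p 0.00540 to 0.0978 over the 8). Green tissue genes summed to 486 to 711 TPM in *plt3* *plt7* and 250 to 850 TPM in *ej2* *j2*, with 0 of 6 tested past the threshold. Their median log2 difference was -0.52, and 2 of the 6 were above 0, beside 52% of all genes tested. The most abundant of them, Solyc03g034220, had 321 to 461 TPM in *plt3* *plt7* and 91.3 to 448 TPM in *ej2* *j2*. Solyc02g063150 went the other way, with 7.02 to 34.7 TPM in *plt3* *plt7* and 49.0 to 64.2 TPM in *ej2* *j2*. Floral organ identity genes summed to 296 to 815 TPM in *plt3* *plt7* and 138 to 697 TPM in *ej2* *j2*. Of 7 tested, 3 were lower and 0 higher, beside 0.962% and 0.875% of all genes tested, and their median log2 difference was -0.57. The most abundant, Solyc05g056620, went the other way, averaging 482 TPM in *plt3* *plt7* and 209 TPM in *ej2* *j2*. Its ranges overlapped, and it did not pass (limma, adjusted p = 0.339). Solyc01g093960 and Solyc05g015750 were listed at 0 in all *plt3* *plt7* libraries, against 10.2 to 26.2 TPM and 0.701 to 31.8 TPM in *ej2* *j2*, and Solyc02g089200 had 0.412 to 1.54 TPM in *plt3* *plt7*, against 9.43 to 40.8 TPM in *ej2* *j2* (limma, adjusted p 8.97e-05, 0.00177 and 0.00101). Their part in the ACS and ACO levels was not tested.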

How the data were processed

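RNA of inflorescence meristems was depleted of ribosomal RNA and sequenced in 8 libraries. The authors deposited TPM values, made from reads trimmed with Trimmomatic and aligned with STAR 2.6.1 to the SL4.0 cDNA annotation. The strand setting and the handling of multi-mapping reads are not given in these sources. Because TPM keeps no depth, counting error is unknown and a 0 is called listed at 0.

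Values were tested as log2(TPM + 1) in R 4.3.3 with limma 3.58.1 (intensity trend, two-sided, Benjamini-Hochberg over 19544 genes averaging 1 TPM or more, threshold 0.05), after a check on simulated data. For each ACS and ACO gene a two-sided exact permutation test was run over the 8 libraries. limma's standard errors rest largely on genes of similar level (365 prior against 6 residual degrees of freedom). The 10 IDs and all lists were chosen with earlier results of these data known. All 10 were to be named, and, of each other list, each gene past the test or else the most abundant. Alternatives changed the pseudocount, filter, scaling, weights, trend, replicate block and libraries used. Figures were drawn in Python 3.11.15 with matplotlib 3.10.9.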

Additional observations from a re-analysis of the deposited data

Results flagged for a closer look

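Of 15 sets of 4 libraries of 1 genotype with any value above 0 for an ACS or ACO gene, 3 held a library far from the other 3 in TPM. Chance flags about 1 in 20 such sets where values vary continuously, a rate that cannot be applied to the sets below with 3 values listed at 0. Solyc07g049550, an ACO gene, had 10.5 TPM in *plt3* *plt7* replicate 1, with a gap to the next library of 0.857 of the range in TPM but of 0.656 on the log2(TPM + 1) scale, where it would not stand out by the same criterion. The ACS gene Solyc05g050010 had 0.196 TPM and the ACO gene Solyc07g026650 had 0.150 TPM in *ej2* *j2* replicate 2, and each was listed at 0 in the other 7 libraries.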

How the results depend on the processing

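No ACS or ACO gene passed in any of the 17 alternatives. The sign of Solyc08g081550 was not stable, with log2 differences of -0.60 to 0.42 when 1 library was left out. It turned positive without *plt3* *plt7* replicate 2 or 3 and without *ej2* *j2* replicate 1, 3 or 4. The estimates of the 4 tested ACO genes stayed above 0 wherever they could be fitted. Solyc12g005940 and Solyc07g049550 were too low to be tested at a minimum of 5 TPM, and Solyc07g049550 also without *plt3* *plt7* replicate 1.

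Of all genes tested, 359 passed, 171 higher and 188 lower in *plt3* *plt7*. The number was 11 without a filter, 229 at a minimum of 5 TPM, 131 without the intensity trend and 85 with only *plt3* *plt7* replicates 1 and 3. The paper's expression plot of *PLT3*, *PLT7*, *EJ2* and *J2* used fewer *plt3* *plt7* than *ej2* *j2* samples. Leaving out 1 library gave 138 to 446, with 153 and 138 without *plt3* *plt7* replicate 1 or 4, and 181, 161 and 220 without *ej2* *j2* replicate 1, 3 or 4. Equal replicate numbers did not pair the libraries (correlations of deviations -0.033 to 0.013), and with the replicate number as a block 303 genes passed. The call of Solyc12g009560 was lost without a filter (limma, adjusted p = 0.124) and held in the other 16 alternatives. That of Solyc12g056590 was lost in 11 of 16, the block among them (limma, adjusted p = 0.0577). Solyc09g084450 was lost in 10 of 16, the block among them (limma, adjusted p = 0.0612), and Solyc02g081670 in 9 of 16, including without a filter or without the trend (limma, adjusted p 0.164 and 0.209). The alternatives for single genes of the other lists were added after the data were seen. Causes of these shifts were not tested.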

Other observations

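A single row, Solyc07g049540, lies between the ACO genes Solyc07g049530 and Solyc07g049550 in ID order, and it was listed at 0 in all 8 libraries. The next ID, Solyc07g049560, chosen after its values were seen, had 48.5, 1.58, 3.58 and 22.6 TPM in *plt3* *plt7*, against 9.34, 9.41, 3.95 and 0.581 TPM in *ej2* *j2*. Like Solyc07g049550, it was highest in *plt3* *plt7* replicate 1 and second highest in replicate 4, but its genotypes overlapped.

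Among the genes listed for the ethylene response, Solyc07g053740, chosen after its values were seen, had 307, 396, 619 and 553 TPM in *plt3* *plt7*, against 12.7, 44428, 252 and 46.3 TPM in *ej2* *j2*. *ej2* *j2* replicate 2, where it was the most abundant gene of the table, was also the *ej2* *j2* library with the highest summed ACO level, 195.5 TPM. Of that sum, 96.7% was Solyc07g049530. Solyc02g081190 (6.06 TPM), Solyc12g005940 (0.194 TPM) and the ACS sum (22.2 TPM) were instead at their lowest among the *ej2* *j2* libraries there. Of the tested homologues, Solyc02g036350 was lowest there (24.8 TPM) and Solyc08g079750 highest (45.4 TPM). A link between these levels was not tested.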
